A study of Homo sapiens with 14 samples.

Results

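The genes of the translation initiation factors were followed through ChIP-seq peaks obtained with an antibody against the transcription factor ZNF143. The set contained every protein-coding gene of the human annotation (GENCODE release 44, hg38) whose symbol is EIF followed by a digit, which gave 56 of 20033 protein-coding genes. A peak was assigned to a gene when its centre was located from 2 kb upstream to 1 kb downstream of any annotated transcription start site (TSS) of that gene. This gave 38 of 20429 peaks in untreated cells and 54 of 35287 peaks after dTAG-V1, or 92 of 55716 peaks in all. A peak that serves 2 genes was counted once.

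ChIP-seq with a polyclonal anti-ZNF143 antibody (Proteintech) was performed in HEK293T cells, a line derived from human embryonic kidney, in which ZNF143 is fused to FKBP12F36V. This tag allows dTAG-V1, a small molecule degrader, to direct the fusion protein to the proteasome. The cells of all groups carry the tag and the labels give a single clone (HEK_CloneZD29) as their source, so that differences between clones cannot be seen. Of the 8 samples, 4 were left without treatment and 4 received dTAG-V1 at 0.5 µM during 30 min, and the authors deposited 1 list of peaks for each condition. The comparison of these lists addresses which peaks of the antibody are seen after the degrader is added, and whether the antibody also recognizes CTCF. A peak is therefore a peak of this antibody and is not taken here as binding of ZNF143. How much ZNF143 was left after treatment was not measured in these files.

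Neither replicate values nor read counts are part of the lists. Sequencing depth is therefore unknown, and no difference between the conditions can be set against the spread between samples, which moreover are not stated to be separate cultures. The methods also describe a replicate rule that was stricter for untreated than for dTAG-V1 peaks, and its use for these lists is unknown. All values below are descriptions of the lists, and no p-value is given for a difference. The score is the integer that MACS2 writes for a peak from its q-value, on the scale of its own list. To place a peak, its percentile was used, which is the percentage of peaks of the same list with a lower score. Wilson intervals (95%) around shares cover counting error only.

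Translation initiation is the step in which the small ribosomal subunit is loaded with initiator tRNA, is recruited to the capped end of an mRNA and finds the start codon. The eIF2 complex brings the initiator tRNA, eIF2B recharges eIF2 with GTP, eIF3 holds the initiation complex together, and eIF4E, eIF4G and eIF4A connect it with the mRNA. These genes are expressed in nearly all cells, and most have promoters rich in CpG. ZNF143 is a zinc-finger protein that binds close to the TSS of many such genes through the SBS motif, which has a short form (SBS1) and a form extended on its 5′ side (SBS2). CTCF is another zinc-finger protein, known for its part in chromatin loops, and its own motif was searched alongside.

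To show what the antibody recovered at these promoters, stretches around SBS2 sites under 4 of the highest untreated peaks are printed. Each runs 5′ to 3′ on the strand named, in hg38. Capitals mark the hit to the SBS2 matrix. The stretches are located in front of EIF1B (chr3:40309599-40309659, plus strand), EIF2S2 (chr20:34112348-34112408, minus strand) and EIF4E (chr4:98929247-98929307, minus strand). The last is at the most distal TSS of EIF2AK3 (chr2:88691563-88691623, plus strand), where RPIA starts as well. These are not the 4 highest peaks by untreated score. EIF2B4 (81586) and EIF5B (77072) scored above EIF1B (72487). EIF3L (54256) and EIF3B (46805) scored above EIF4E (46370), and their untreated peaks had no SBS2 hit.
EIF1B: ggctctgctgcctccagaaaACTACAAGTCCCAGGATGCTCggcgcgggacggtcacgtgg
EIF2S2: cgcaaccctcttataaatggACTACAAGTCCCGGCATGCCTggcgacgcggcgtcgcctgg
EIF4E: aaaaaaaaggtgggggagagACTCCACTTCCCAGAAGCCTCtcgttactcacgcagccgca
EIF2AK3: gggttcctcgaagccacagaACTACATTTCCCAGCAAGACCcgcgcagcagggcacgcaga

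For the other members with the highest untreated scores the hit alone is given, SBS2 for the first 3 and SBS1 for the rest. They lie at chr2:27370554-27370574 (plus strand, EIF2B4), chr2:99336523-99336543 (minus, EIF5B), chr17:7308917-7308937 (minus, EIF5A), chr14:103333992-103334009 (minus, EIF5), chr22:36529466-36529483 (plus, EIF3D), chr22:37849351-37849368 (plus, EIF3L), chr3:184134224-184134241 (minus, EIF2B5) and chr7:2354853-2354870 (minus, EIF3B).
EIF2B4: ACTACAGTTCCCAGCATGCCC
EIF5B: ACTGCAACTCCCACAATGCTT
EIF5A: CCCACTTTTCCCAGGATGCAT
EIF5: TTCCCAGAGGTCTTCGCG
EIF3D: GTCCCACAATGCTTCGCG
EIF3L: TTCCCGGCAGGCCCGAGT
EIF2B5: TTCCCATCCCGCCCCGCG
EIF3B: CTCCCAGGCCGCACCGCG

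Of the 18 peaks found only after dTAG-V1, 4 carried a hit to the CTCF matrix at p 1e-05 within 20 bp of their summit. SBS hits at p 1e-05 were present in 4 of the 18 as well and are not printed. These were located at chr17:41688158-41688171 (minus strand, EIF1), chr1:206608290-206608303 (plus, EIF2D), chr22:31451899-31451912 (plus, EIF4ENIF1) and chr7:74183886-74183899 (minus, EIF4H). Only the EIF1 summit was near the canonical TSS, 721 bp upstream. The others were inside the gene, 4159 bp (EIF2D, coding exon 4, score 76), 37950 bp (EIF4ENIF1, intron 10) and 9556 bp (EIF4H, intron 1) downstream of it.
EIF1: GCACCAGAGGGCGT
EIF2D: CCAGCAGGGGGCAT
EIF4ENIF1: CCACTAGATGGAGC
EIF4H: TCACTAGGGGGCAG

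In untreated cells, 35 of the 56 EIF genes had a promoter peak, or 62.5% (interval 49.4 to 74.0), compared with 40.4% of all protein-coding genes. After dTAG-V1 there were 41, or 73.2% (interval 60.4 to 83.0), compared with 48.1%. Both lists had a peak for 32 genes (57.1%, all genes 37.1%), and in each of these 32 a peak of one list overlapped a peak of the other. Only the untreated list had a peak for 3 genes (5.36%, all genes 3.35%), and only the dTAG-V1 list for 9 genes (16.1%, all genes 11.0%). The remaining 12 genes had none (21.4%, all genes 48.5%).

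The EIF peaks had a higher median percentile than all promoter peaks. The median percentile was 75.6 for the 38 untreated peaks and 62.1 for the 7702 promoter peaks of all protein-coding genes. In the dTAG-V1 list it was 62.9 for the 54 EIF peaks and 52.3 for all 10296 promoter peaks. This was not particular to the EIF genes, as the medians of cytosolic ribosomal protein genes were 82.4 and 90.8, and those of aminoacyl-tRNA synthetase genes 70.4 and 62.4. A peak among the highest 10% of untreated scores was present at 12 EIF genes (21.4%, all genes 10.0%), and one among the highest 10% of dTAG-V1 scores at 19 (33.9%, all genes 13.4%). The 12 genes were all among the 19. The same is true for 98.2% of the protein-coding genes with such an untreated peak.

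**Figure D1:**
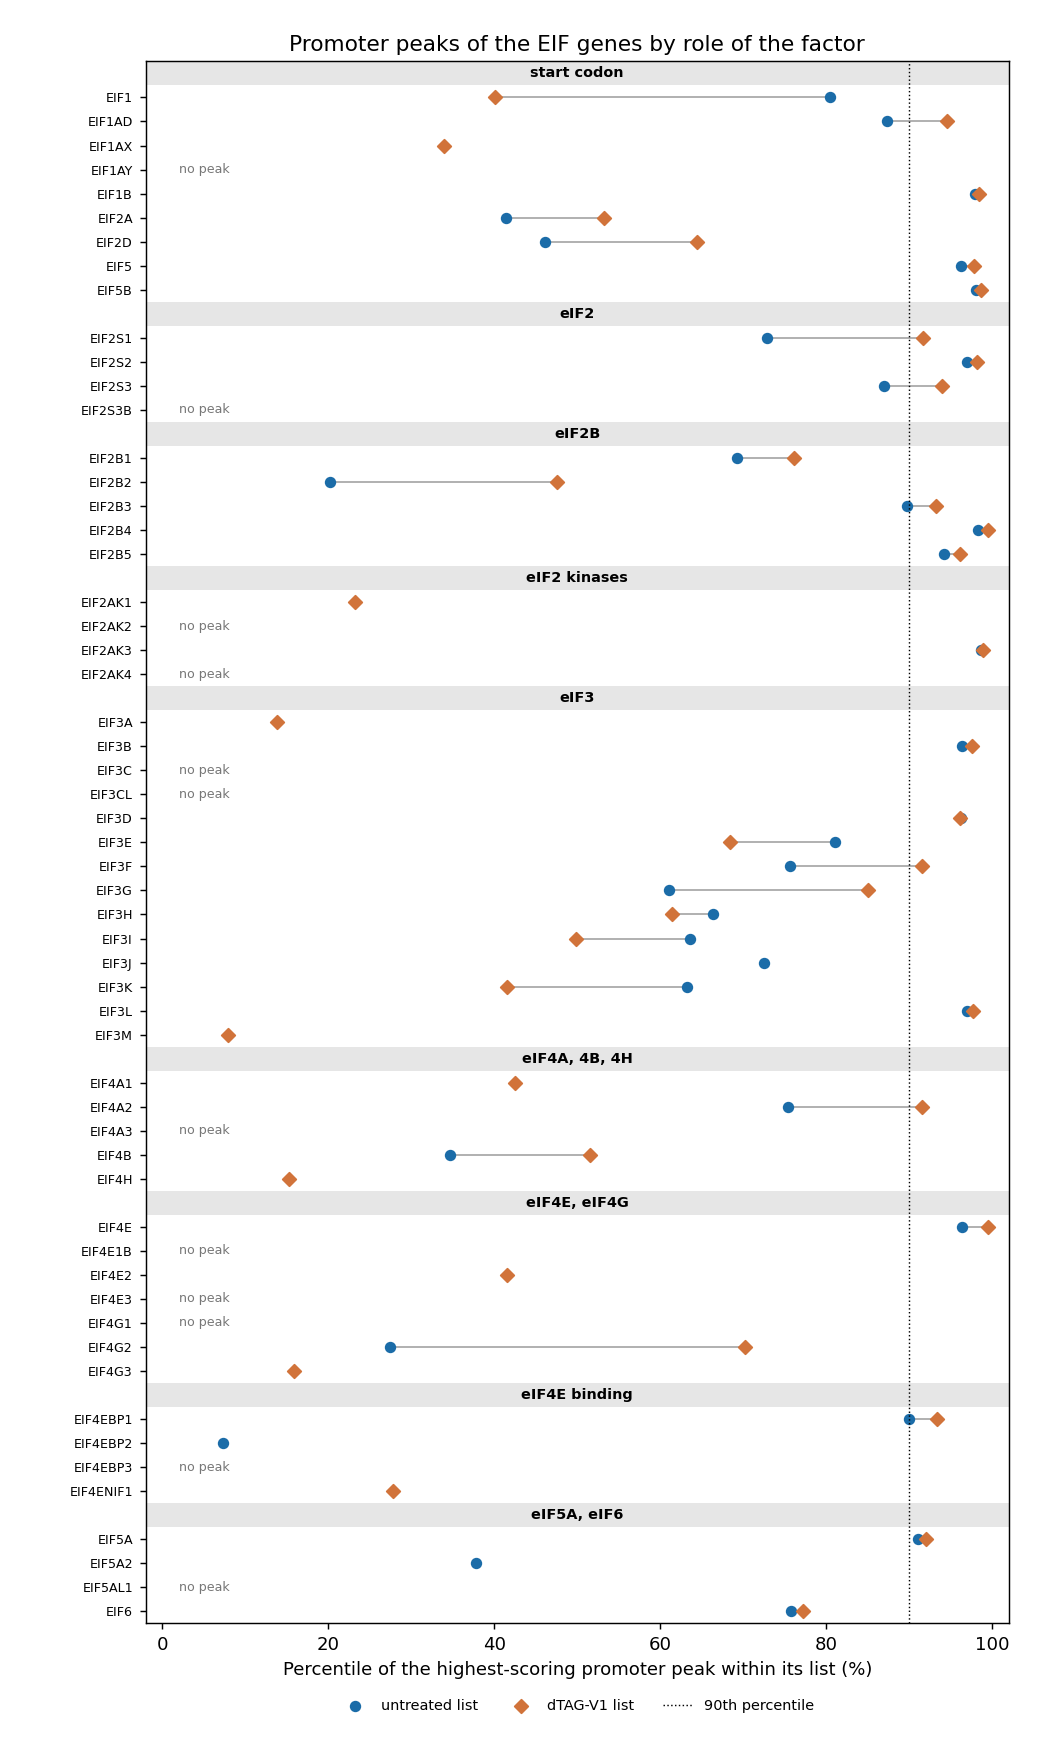
Percentile of the highest-scoring promoter peak of each of the 56 EIF genes within the untreated list (circles) and the dTAG-V1 list (diamonds), grouped by the role of the factor, with a dotted line at the 90th percentile. All 5 eIF2B genes have peaks in both lists, whereas genes with a diamond only lie at or below a percentile of 42.5.

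For the factors of start codon recognition, peaks in both lists were present for 7 of 9 genes. The highest peaks belonged to EIF5B, which joins the ribosomal subunits, EIF1B, a paralog of the start codon selection factor eIF1, and EIF5, which makes eIF2 hydrolyse its GTP. EIF5B had a score of 77072 (rank 380) when untreated and of 21425 (rank 500) after dTAG-V1. For EIF1B the scores were 72487 (rank 423) and 18902 (rank 575). EIF5 had scores of 45810 (rank 760) and 13283 (rank 793). Their summits moved by 0, 1 and 2 bp between the lists.

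The summit of EIF5B was located 861 bp upstream of its nearest TSS and 125 bp from a TSS of TXNDC9, so that the peak belongs to both windows and cannot be ascribed to EIF5B alone. The EIF5 peak likewise lies in the window of a protein-coding gene without a symbol (ENSG00000291313). The EIF1B summit was 75 bp upstream of the TSS, and a non-coding RNA (EIF1B-AS1) starts 66 bp from it. EIF1AD, an eIF1A-domain protein, shared its peak with the divergent gene BANF1 (scores 3219 and 1469). EIF2A and EIF2D, which can deliver initiator tRNA without eIF2, had low peaks. The EIF2A scores were 119 and 122, and those at the 5′ end of EIF2D were 139 and 160.

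At EIF1 the position of the peak differed between the lists. The untreated peak (chr17:41688497-41689596, score 930, percentile 80.5) had the summit 103 bp upstream of the TSS. The overlapping dTAG-V1 peak (chr17:41688849-41690236) had a score of 90, a percentile of 40.1 and a summit 261 bp away, in coding exon 1 of the canonical transcript. A second dTAG-V1 peak (chr17:41688090-41688472, score 65) had no counterpart in the untreated list. The CTCF hit printed for EIF1 is centred 0.500 bp from its summit. EIF1AX, which encodes eIF1A, had a peak only after dTAG-V1 (chrX:20142102-20142343, score 78). EIF1AY had none, and neither list contains a peak on chromosome Y.

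For eIF2, all 3 general subunits had peaks in both lists. EIF2S2 (beta subunit) had scores of 54519 (rank 608) and 16750 (rank 643), with the summit at the same base in both lists, 126 bp upstream of the TSS. Its peak lies in the window of no other protein-coding gene. EIF2S3 (gamma subunit) had scores of 2915 and 1152, and EIF2S1 (alpha subunit, the target of the eIF2 kinases) of 459 and 609. EIF2S1 went from a percentile of 72.9 to one of 91.7 and carried no SBS hit at p 1e-05 in either list. Its peak also lies in the window of ATP6V1D and cannot be ascribed to EIF2S1 alone. The summits were 232 and 212 bp from the EIF2S1 TSS and 169 and 149 bp from a TSS of ATP6V1D. EIF2S3B, a retrocopy of EIF2S3, had no peak. Since the authors kept uniquely mapped reads only, missing peaks at near-identical copies (EIF2S3B, EIF5AL1 and the pair EIF3C and EIF3CL) are uncertain.

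The eIF2B genes were the most complete group, with peaks in both lists for 5 of 5. EIF2B4 (delta subunit) had a score of 81586 (rank 350) when untreated and of 39572 (rank 184) after dTAG-V1. Its peak (untreated chr2:27370336-27370807) lies between EIF2B4 and the divergent gene SNX17, with the summit 171 bp upstream of the TSS of EIF2B4 and 13 bp from a TSS of SNX17. The peak of EIF2B5 (epsilon subunit, the catalytic one) had scores of 25085 and 4287 at 819 and 813 bp upstream of the nearest TSS. After dTAG-V1, EIF2B5 had an additional peak (chr3:184135168-184135497) 7 bp upstream of its TSS, with a score of 307 and no SBS or CTCF hit at p 1e-05. EIF2B3 had scores of 6165 and 893. EIF2B1 and EIF2B2 had scores from 65 to 366 in the 2 lists.

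Of the 4 eIF2 kinases, only EIF2AK3 had an untreated peak. EIF2AK3 (PERK, the kinase of endoplasmic reticulum stress) held the highest untreated score of all EIF genes, 94670 (rank 258), and 26158 (rank 381) after dTAG-V1. This peak (chr2:88691255-88691745) is not at the main promoter. It lies 63 bp upstream of the most distal TSS of EIF2AK3 but 64117 bp upstream of the canonical one, and a TSS of RPIA, which encodes an enzyme of the pentose phosphate pathway, is 92 bp away. At the canonical promoter of EIF2AK3 the scores were 276 and 74. EIF2AK1 (HRI, the heme-regulated kinase) had a peak only after dTAG-V1 (chr7:6057976-6058730, score 59), in intron 1. EIF2AK2 (PKR, activated by double-stranded RNA) and EIF2AK4 (GCN2, activated by uncharged tRNA) had no peak.

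Among the 14 genes of eIF3, 9 had peaks in both lists. The values were high for EIF3L (54256, rank 610, and 12577, rank 821), EIF3B (46805, rank 730, and 12424, rank 831) and EIF3D (44173, rank 779, and 4341, rank 1376). The remaining 6 genes with peaks in both lists (EIF3E, EIF3F, EIF3G, EIF3H, EIF3I and EIF3K) had untreated scores of at most 1021. The peaks of EIF3L and EIF3B are shared with ANKRD54 and SNX8, whereas the EIF3D peak is in the window of no other protein-coding gene. In EIF3E and EIF3H, part of the signal was at a distal TSS next to EMC2 and UTP23. For EIF3H this was the only untreated peak, with a score of 313, located 10677 bp upstream of the canonical TSS.

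EIF3J, which encodes a loosely bound subunit, had the highest score among the genes found only in the untreated list (chr15:44537022-44537418, score 447, percentile 72.5). Its summit was 3 bp upstream of the nearest TSS, and an SBS1 hit lies 27.5 bp from it. EIF3A, the scaffold of the complex (chr10:119081005-119081448, score 46), and EIF3M (chr11:32583524-32583835, score 38) had peaks only after dTAG-V1. The EIF3M score was the lowest of all EIF peaks. EIF3C and EIF3CL had none.

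The eIF4 factors load mRNA onto the ribosome. Of EIF4A1, EIF4A2, EIF4A3, EIF4B and EIF4H, peaks were present in both lists for EIF4A2 (an eIF4A helicase, scores 554 and 582) and EIF4B (a helicase cofactor, 98 and 118). EIF4A1, the main helicase, had 2 peaks only after dTAG-V1 (chr17:7572317-7573001, score 95, and chr17:7573364-7573715, score 52). EIF4H, another helicase cofactor, also had 2 (chr7:74173219-74173523, score 47, and chr7:74183622-74183953, score 40). EIF4A3, which belongs to the exon junction complex, had none.

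Of the 7 cap-binding and scaffold genes, EIF4E stood apart. EIF4E encodes the protein that binds the cap, and its peak (untreated chr4:98928880-98929608) had a score of 46370 (rank 741) when untreated. After dTAG-V1 the score was 41218, which at rank 167 was the highest of all EIF genes. The summit was 147 and 144 bp upstream of the TSS, respectively, and the printed SBS2 hit is centred on the dTAG-V1 summit. EIF4G2 had scores of 80 and 187. EIF4E2 (chr2:232550371-232550735, score 94) and EIF4G3 (chr1:21175341-21175684, score 48) had peaks only after dTAG-V1. EIF4E1B, EIF4E3 and EIF4G1, the main scaffold, had none. For EIF4E3, a dTAG-V1 peak (score 58) was centred 20 bp outside the window.

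The genes of proteins that bind eIF4E were 1 in each class. EIF4EBP1, a repressor controlled by mTOR, had scores of 6797 and 920. EIF4EBP2 had a low peak in the untreated list only (chr10:70403820-70404164, score 41, percentile 7.37). EIF4ENIF1, which shuttles eIF4E into the nucleus, had 3 peaks after dTAG-V1 only, at different TSSs (chr22:31451809-31452067, score 66, chr22:31496033-31496368, score 52, and chr22:31490400-31490681, score 44). The first of these had its summit 37950 bp downstream of the canonical TSS. The second also lies in the window of SFI1, with its summit 4 bp from a TSS of SFI1. It is 6429 bp upstream of the canonical TSS of EIF4ENIF1 and cannot be ascribed to it alone. EIF4EBP3 had none. A second dTAG-V1 peak of EIF4EBP1 (score 138) was the member closest to the edge of its window, with the centre 871 bp downstream of the TSS, 129 bp inside.

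EIF5A, whose product acts in elongation, had 2 peaks in each list. The upstream peak had scores of 434 and 552, and the one in intron 1 had scores of 9224 and 645. EIF6, which keeps the large subunit free, had scores of 566 and 230. EIF5A2 had a peak in the untreated list only (chr3:170907651-170907980, score 107), 844 bp downstream of the nearest TSS, in coding exon 2. EIF5AL1 had none.

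**Figure D2:**
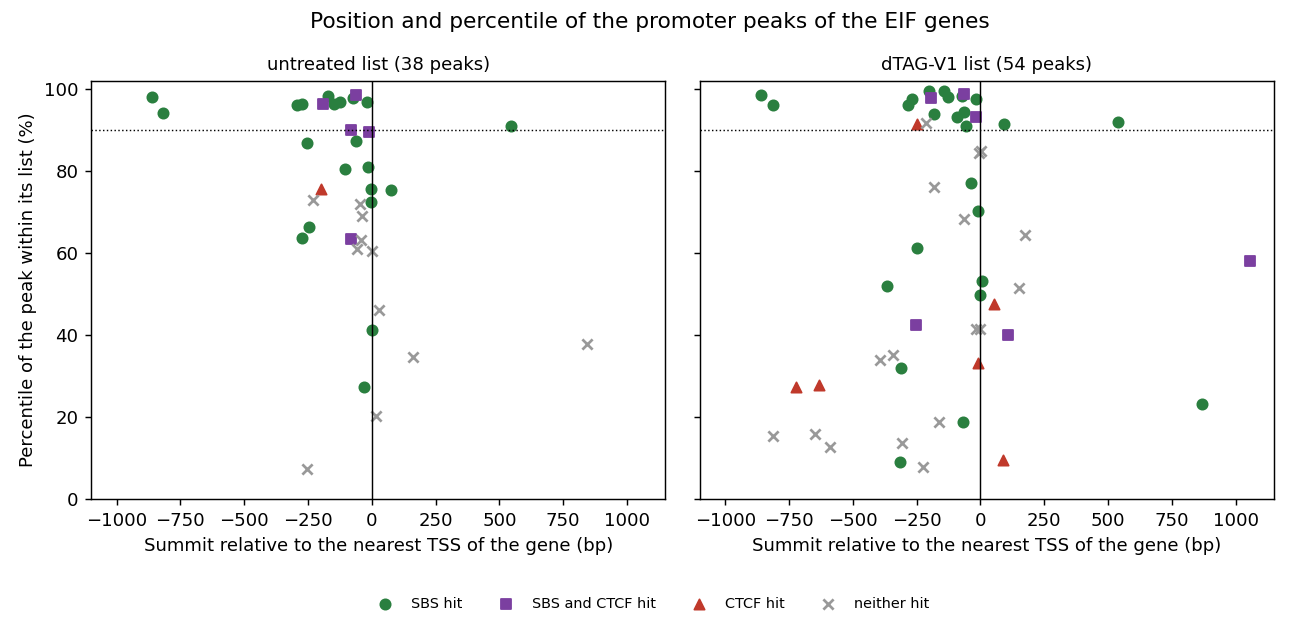
Summit position relative to the nearest TSS of the gene (bp, negative upstream) against the percentile of the peak, for the 38 untreated peaks (left) and the 54 dTAG-V1 peaks (right). Symbols give hits at p 1e-05, and the 12 untreated peaks among the highest 10% are all of the classes with an SBS hit.

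The window rule places every peak centre near a TSS and reaches further upstream (2 kb) than downstream (1 kb). The positions therefore only describe the set, and no value for all promoter peaks is given beside these counts. The summit was within 100 bp of a TSS of the gene for 20 of 38 untreated peaks and within 500 bp for 34, and it was at or upstream of the TSS for 31. After dTAG-V1 these numbers were 21, 44 and 43 of 54. Peaks present in both lists had their summits close together. The median distance between the summits was 18.0 bp for EIF genes and 27.0 bp for all promoter peaks of the untreated list. It was over 100 bp for 6 untreated peaks, at EIF1 (261 bp), EIF2B1 (146 bp), EIF2D (144 bp), EIF3E (128 and 353 bp) and EIF3I (112 bp). Of all promoter peaks found in both lists, 25.2% moved this far.

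The EIF peaks were often shared with a neighbouring gene. Of the 38 untreated peaks, 14 lay in the window of another protein-coding gene, compared with 19.0% of all promoter peaks, and after dTAG-V1 it was 16 of 54, compared with 16.1%. A divergent protein-coding gene starts within 1 kb of the canonical TSS for 8 EIF genes, and 6 of these had an untreated peak. Such a neighbour was present for 9.46% of all protein-coding genes, of which 75.3% had an untreated peak. Without the shared peaks, 23 EIF genes (41.1%, all genes 27.5%) had an untreated peak and 6 (10.7%, all genes 5.75%) had one among the highest 10%, namely EIF1B, EIF2B5, EIF2S2, EIF3D, EIF4E and EIF5A. With shared peaks included but canonical TSSs only, 10 of the 12 genes (17.9%, all genes 9.06%) had a peak among the highest 10%, without EIF2AK3 and EIF5A.

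The overlap between the lists was examined next. Of the 38 untreated peaks, 35 overlapped a dTAG-V1 peak by at least 1 bp, or 92.1% (interval 79.2 to 97.3), compared with 84.2% of all promoter peaks. The 3 without overlap, at EIF3J, EIF5A2 and EIF4EBP2, are described above. In the other direction, 36 of 54 dTAG-V1 peaks overlapped an untreated peak, or 66.7% (interval 53.4 to 77.8), compared with 62.6%. The 18 peaks found only after dTAG-V1 were low, with scores from 38 to 307 and a median of 55.5. The 36 others had a median score of 584.

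The highest untreated peaks were all present after treatment. Of the 12 untreated EIF peaks among the highest 10% of scores, 12 were found in the dTAG-V1 list, as were 99.6% of the 1587 such promoter peaks of all genes. Of the 26 lower EIF peaks, 23 were found again, compared with 80.2%. Presence in a list does not say how much signal remained, since the scores of the 2 lists are on separate scales.

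Hits to the SBS matrices were frequent. At p 5e-05, 34 of 38 untreated EIF peaks had one, or 89.5% (interval 75.9 to 95.8), compared with 79.9% of all promoter peaks. At the stricter p 1e-05 there were 26, or 68.4% (interval 52.5 to 80.9), compared with 54.6%. After dTAG-V1, the numbers were 41 of 54 (75.9%, all promoter peaks 67.9%) and 31 of 54 (57.4%, interval 44.2 to 69.7, all promoter peaks 39.9%). The interval contains the value of all promoter peaks for both lists at p 5e-05 and for the untreated list at p 1e-05, but not for the dTAG-V1 list at p 1e-05. That last comparison takes no account of score or width. The EIF peaks of the dTAG-V1 list had a median width of 570 bp, compared with 505 bp for all promoter peaks.

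SBS hits were concentrated in the high peaks. All 12 untreated EIF peaks among the highest 10% had an SBS hit at p 1e-05, and 9 of them an SBS2 hit, compared with 95.7% and 76.7% of all such promoter peaks. Of the 26 lower EIF peaks, 14 had an SBS hit and 5 an SBS2 hit, compared with 44.0% and 15.3%. In the dTAG-V1 list, 20 of 54 EIF peaks and 2141 of 10296 promoter peaks were among the highest 10%. An SBS hit at p 1e-05 was present in 18 of these 20 EIF peaks, compared with 83.4%. It was present in 13 of the 34 lower EIF peaks, compared with 28.5%. How far the higher scores of the EIF peaks account for their larger dTAG-V1 share was not tested. In the 14 untreated EIF peaks with an SBS2 hit, the closest was at a median of 11.5 bp from the summit, compared with 19.0 bp in all promoter peaks. For SBS hits of either form it was 19.0 bp in 26 peaks, compared with 21.5 bp, and 16 of the 26 were within 50 bp (61.5%, all promoter peaks 67.6%). The hits of EIF1AD, EIF3B and EIF3I, for example, lie 292, 310 and 334 bp from the summit. After dTAG-V1 the median was 58.5 bp in 31 EIF peaks, compared with 42.2 bp, and 15 were within 50 bp (48.4%, all promoter peaks 53.0%). Of the 26 closest hits in the untreated list, 10 were on the strand of the EIF gene and 16 on the other strand.

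The shares of EIF peaks with a CTCF hit had intervals that contain those of all promoter peaks. At p 5e-05, 18 of 38 untreated EIF peaks had a CTCF hit (47.4%, interval 32.5 to 62.7), compared with 38.6%, and at p 1e-05 there were 6 (15.8%, interval 7.44 to 30.4), compared with 18.1%. After dTAG-V1 there were 26 of 54 (48.1%, all promoter peaks 42.6%) and 12 of 54 (22.2%, all promoter peaks 23.3%). The closest CTCF hit of the 6 untreated peaks was at a median of 234 bp from the summit, compared with 82.0 bp in all promoter peaks. None of the 6 was within 50 bp, compared with 35.8% of all promoter peaks with such a hit. In the dTAG-V1 list the median was 183 bp in 12 peaks, compared with 37.5 bp. Within 20 bp there were 5 of 12 (41.7%, all promoter peaks 35.0%), and within 50 bp the same 5 (41.7%, all promoter peaks 56.6%). These 5 were the printed hits of EIF1, EIF2D, EIF4ENIF1 and EIF4H and the hit of EIF3F. EIF3F, a subunit of eIF3, had peaks in both lists (scores 562 and 586), and this hit lay 64.5 bp from its untreated summit and 14.5 bp from its dTAG-V1 summit. Of the 18 peaks found only after dTAG-V1, 4 had an SBS hit and 5 a CTCF hit at p 1e-05. The shares over all promoter peaks of the dTAG-V1 list were 39.9% and 23.3%. Shares over all promoter peaks found only after dTAG-V1 are not given, so these counts cannot be set against them.

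**Figure D3:**
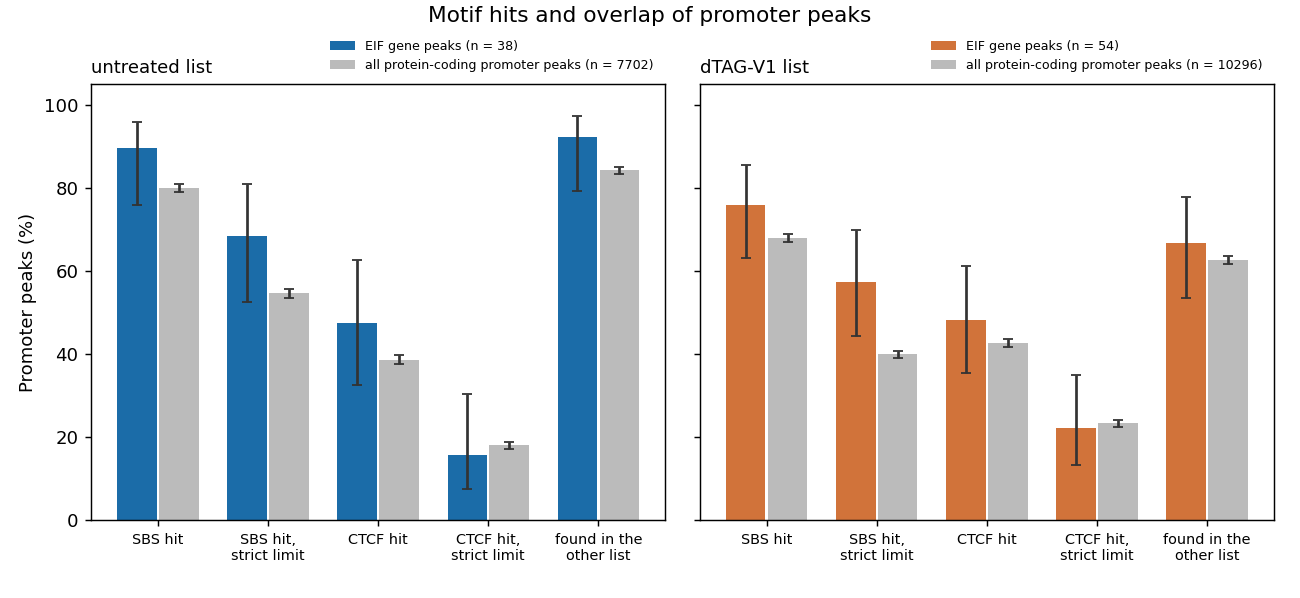
Percentage of promoter peaks with SBS or CTCF hits (p 5e-05, or the strict limit of p 1e-05) and of peaks found in the other list, for EIF genes (coloured) and all protein-coding genes (grey). Error bars are 95% Wilson intervals. Strict CTCF hits are at 15.8% of untreated EIF peaks and 18.1% of all untreated promoter peaks.

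Short words were then counted in the RefSeq promoters (250 bases before to 50 after a start, GRCh38.p14), on both strands. By symbol, 47 of the 56 EIF genes and 15345 protein-coding genes had such a promoter. TCCCAGNAT, the core of SBS, was present in 2 EIF promoters (4.26%, all genes 2.50%), those of EIF1B and EIF2B4. The same 2 contained ACTACANNT, the SBS2 extension (4.26%, all genes 5.03%), which shares its last base with the core in a full site. The ETS word ACTTCCGG was present in 9 (19.1%, all genes 7.11%), in EIF1AD, EIF2A, EIF2B1, EIF2B2, EIF3I, EIF4E2, EIF5A, EIF5A2 and EIF6. Of these 9, EIF5A is among the 12 genes with the highest 10% of untreated scores. Within 100 bp of the untreated summits it occurred at 6 of 38 EIF peaks (15.8%), compared with 7.24% of all promoter peaks.

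Other words gave smaller differences. GGGGCGGGG, bound by SP and KLF factors, was present in 17 EIF promoters (36.2%, all genes 26.7%), AAGATGGCG (YY1) in 3 (6.38%, all genes 3.27%), GCGCATGCG (NRF1) in 2 (4.26%, all genes 3.09%) and AGNGGGCGC (core of CTCF) in 4 (8.51%, all genes 6.99%). The EIF promoters had a median GC content of 65.0% and a median observed over expected CpG ratio of 0.900. For all protein-coding promoters the medians were 62.3% and 0.742.

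Lastly, the EIF genes were compared with other genes of translation. Of 89 cytosolic ribosomal protein genes, 81 had an untreated peak, or 91.0% (interval 83.3 to 95.4), and 34 (38.2%) had one among the highest 10%. Of 37 aminoacyl-tRNA synthetase genes, 32 had an untreated peak, or 86.5% (interval 72.0 to 94.1), and 8 (21.6%) one among the highest 10%. The share of EIF genes with an untreated peak (62.5%) was thus below both of these, with an interval that overlaps that of the synthetases. The share among the highest 10% (21.4%) was close to that of the synthetases. These differences were not tested.

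**Figure D4:**
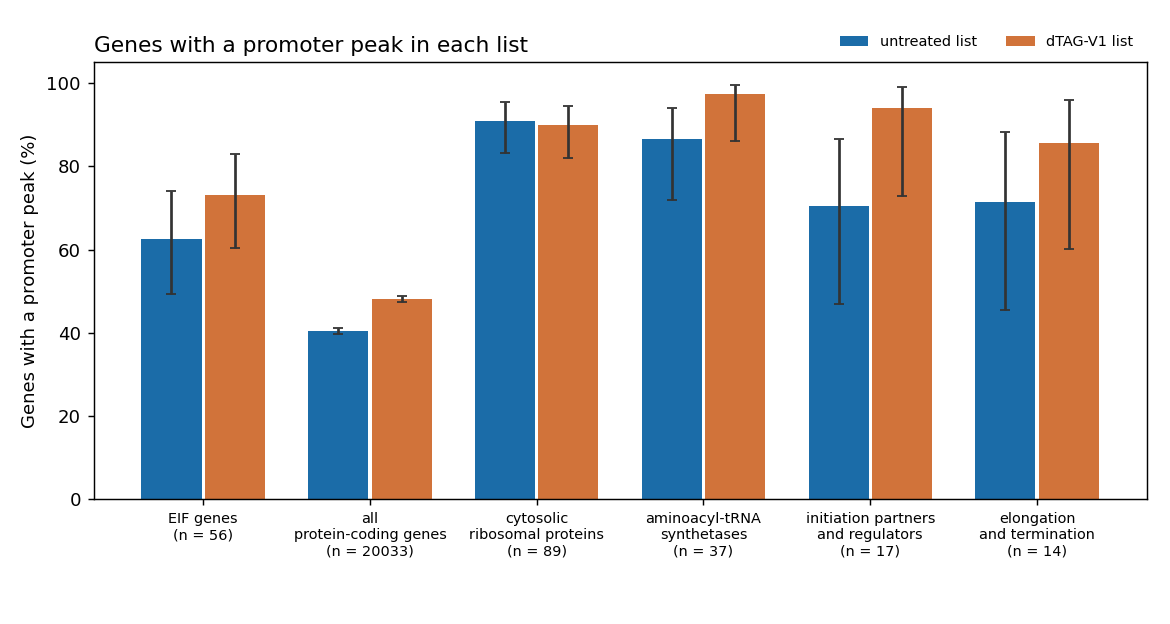
Percentage of genes with a promoter peak in the untreated and the dTAG-V1 list for EIF genes, all protein-coding genes and 4 other sets of translation genes, with 95% Wilson intervals. The EIF genes reach 62.5% and 73.2%, between all protein-coding genes and the ribosomal proteins.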

How the data were processed

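Peaks of the 8 Proteintech samples (4 untreated, 4 dTAG-V1) were used in the form of the 2 deposited lists in hg38, while the 6 CTCF samples were not analysed here. The peak names of the untreated list mention DMSO, whereas labels and methods describe no treatment, which was followed. According to the methods, the authors aligned reads with BWA, retained uniquely mapped proper pairs, removed duplicates using Picard and ran MACS2. The methods also describe a rule on the number of replicates with a peak, which differs between the conditions. An untreated peak had to be found in all 4 replicates, whereas for dTAG-V1 any of the 4 was enough. Whether the lists were filtered by this rule is unknown. The numbers of peaks, and of genes with a peak, may therefore not be comparable between the lists. The deposited score of a peak was written by MACS2 from its q-value. The deposited fold enrichment is a ratio over local background, and the deposited −log10 q-value comes from the same call. No per-sample column was left unused (0).

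Scores and fold enrichments were only ranked within a list. TSSs were taken from GENCODE release 44. Overlaps needed 1 bp. Motif matrices (SBS1, SBS2, CTCF) were built from the odd-numbered autosomes of the 40687 merged peaks, leaving out EIF promoter peaks, with starts allowing 2 mismatches, 10 rounds, a pseudocount of 0.8 and sites at p 1e-06. Hits were called at p 5e-05 or 1e-05 with genome base frequencies. The procedure was tested on random sequences with genome base frequencies, with and without placed sites. This cannot show how often hits arise from base composition alone in promoters rich in GC. The software was samtools 1.23.1, pysam 0.24.0, matplotlib 3.10.9, pandas 2.3.3, numpy 2.4.6, scipy 1.17.1 and Python 3.11.15. The highest 10% of scores means peaks at or above the 90th percentile, before rounding.

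Positions and scores are given for members with a peak in 1 list only. Scores are also given for the 10 with the highest untreated score and the 5 with the lowest score. For untreated peaks with summits over 100 bp from the dTAG-V1 summit, the distance is given. No sequence is shown for the 3 EIF genes on chromosome 8. The members and gene lists were chosen with earlier results of these data known. Alternatives covered the window, the TSSs, the q-value (−log10 of at least 5), the overlap (at least 50% of each peak), the motif limit, the distance to the summit and the ranking.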

Additional observations from a re-analysis of the deposited data

How the results depend on the processing

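The share of EIF peaks with a motif depended on the limits set for a hit. For SBS in the untreated list, 89.5% became 68.4% with hits at p 1e-05 and 71.1% with hits within 100 bp of the summit. For CTCF in the untreated list, 47.4% became 15.8% and 18.4%. After dTAG-V1, SBS went from 75.9% to 57.4% and 59.3%, and CTCF from 48.1% to 22.2% and 27.8%. By construction, both alternatives can only lower a share. With other windows, TSSs, thresholds, overlaps and rankings, the number of EIF genes with a peak was 32 to 35 (untreated) and 37 to 42 (dTAG-V1), the share of untreated peaks found again was 84.2% to 94.6%, and the median percentile was 75.6 to 80.5 (untreated) and 58.7 to 77.2 (dTAG-V1). With a narrow window of 500 bp on each side, EIF2B5, EIF5A2 and EIF5B lost their untreated peak.

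Leaving out peaks shared with another protein-coding gene, a choice made after seeing the data, gave 23 EIF genes with an untreated peak in place of 35, and 29 in place of 41 after dTAG-V1. Among the highest 10% it gave 6 in place of 12 and 11 in place of 19. With canonical TSSs these last numbers were 10 and 18. No paired analysis was possible because each condition has a single list without replicate columns, and for the same reason no replicate could be left out. The depth is unknown, so that a missing peak does not show that there was no binding.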

Other observations

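Genes that work with the initiation factors without carrying an EIF symbol were looked at as well. Of 17 partners and regulators, 12 had an untreated peak and 16 a dTAG-V1 peak, and 11 had both. Scores were highest for PABPC1, the poly(A)-binding protein that contacts eIF4G (34283 untreated and 3649 after dTAG-V1), and for CTIF, a scaffold of the nuclear cap-binding complex (29444 and 6569). PAIP2, an inhibitor of PABPC1, had scores of 9990 and 855. ATF4, the transcription factor translated when eIF2 is phosphorylated, had scores of 4250 and 860. Peaks were present only after dTAG-V1 for DENR, GCN1, IMPACT, MKNK1 and PAIP1 (scores from 45 to 151), and only when untreated for PDCD4 (score 109).

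Of 14 genes of elongation and termination, 10 had a peak in both lists and 2 only after dTAG-V1. GSPT1, which encodes the release factor eRF3a, had a score of 215333 when untreated and 91969 after dTAG-V1, above every EIF gene in both lists. EEF1A1, the main elongation factor that delivers tRNA, had scores of 25305 and 16233. EEF2 and EEF1A2 had no peak.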
